A study of Rattus norvegicus with 12 samples.

Results

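Cultured cardiac myocytes and cardiac fibroblasts were compared with each other after both had received siRNA against Yap. The question is which genes separate the cell types once Yap is low. The comparison used 6 of the 12 libraries of the study: 3 of Yap-siRNA cardiomyocytes and 3 of Yap-siRNA fibroblasts. Of 14636 genes in the deposited table, 11346 had a mean of at least 0.5 FPKM (fragments per kilobase of transcript, scaled to the mapped fragments of the library) over these 6 libraries and were tested, while 594 were listed at 0 in all 6. The remaining 6 libraries, 3 of control-siRNA cardiomyocytes and 3 of control-siRNA fibroblasts, served as the setting without knockdown.

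Both cell types were primary cells from hearts of 2-day-old Sprague Dawley rats, released by enzymes, separated on a Percoll density gradient and grown in medium with 15% fetal bovine serum. The Yap-siRNA cardiomyocytes and Yap-siRNA fibroblasts received 2 siRNAs against Yap, each at 25 nM, 16 h after plating. The control-siRNA cardiomyocytes and control-siRNA fibroblasts received a universal negative control siRNA. RNA was taken 48 h after transfection in all 4 groups. No transgene was used, and the cells are cultured neonatal cells, so each group stands for that stage and for cells away from the heart.

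YAP, encoded by Yap1, is a transcriptional coactivator that the Hippo kinases keep out of the nucleus. In the nucleus it binds TEAD factors, which recognise the MCAT element, and it supports the growth of neonatal cardiomyocytes and the activation of cardiac fibroblasts. Cardiomyocytes are known for sarcomeres, calcium cycling and oxidative metabolism, and cardiac fibroblasts for the collagen-rich matrix they secrete and for the growth factors and cytokines they release.

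Yap1 was low in all 6 libraries. It had 5.9, 4.43 and 6 FPKM in Yap-siRNA cardiomyocytes, against 4.45, 3.88 and 4.49 FPKM in Yap-siRNA fibroblasts. Under control siRNA it had 55.3, 60.8 and 63.1 FPKM in cardiomyocytes and 35.4, 37.4 and 33.5 FPKM in fibroblasts, so every knockdown library lay below every control library. The remaining Yap1 was higher in cardiomyocytes by 0.28 ± 0.10 (log2 fold change ± SE, adjusted p = 0.0195, limma with Benjamini-Hochberg adjustment), with overlapping groups. That call was lost in a fit of the 6 libraries alone (adjusted p = 0.0732) and without fibroblast library 2 or cardiomyocyte library 1 or 3. Wwtr1, which encodes the YAP paralog TAZ, had 25.1, 25.1 and 28.5 FPKM in Yap-siRNA cardiomyocytes and 21.2, 19.3 and 23.8 FPKM in Yap-siRNA fibroblasts, a log2 fold change of 0.28 (adjusted p = 0.00801). Of the TEAD factors, Tead2 (-0.47) and Tead3 (-0.49) were lower in cardiomyocytes, and Tead1 did not pass at -0.35 (adjusted p = 0.056).

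The FPKM of the 6 libraries summed to 563194 to 620119 each, and the read depth behind them is unknown. Spearman correlations across genes were 0.99 to 0.992 within Yap-siRNA cardiomyocytes, 0.994 to 0.995 within Yap-siRNA fibroblasts and 0.799 to 0.816 between them, and a first principal component of these 6 libraries took 95.0% of variance. No library stood apart from its group. Whether replicate libraries stem from different animals or dishes is not in the labels, so p-values reflect the spread among libraries only, and that spread may be technical. An exact two-sided permutation test of 3 against 3 cannot go below 0.1, so calls rest on limma, fitted across all genes on log2(FPKM + 1), at an adjusted p under 0.05. Fold changes on that scale understate the change of genes with low values. Every log2 fold change below is cardiomyocytes over fibroblasts unless another comparison is named.

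The libraries carried the markers of their labels. Tnnt2, cardiac troponin T, had 8523, 9801 and 8448 FPKM in Yap-siRNA cardiomyocytes, against 381, 417 and 342 FPKM in Yap-siRNA fibroblasts. Col1a1, a collagen I chain, had 249.8, 192 and 201 FPKM in Yap-siRNA cardiomyocytes, against 6027, 5999.9 and 6283 FPKM in Yap-siRNA fibroblasts. The other defining markers of each type lay the same way, with no overlap: Myh6, Tnni3, Actn2 and Ryr2 on the cardiomyocyte side and Pdgfra, Tcf21, Ddr2 and Dcn on the fibroblast side. In bulk RNA, fewer cells of a type and less RNA of a gene per cell cannot be told apart, so low levels of cardiomyocyte genes in the fibroblast libraries, and the reverse, may come from either. Markers of other cells were present too. The endothelial marker Pecam1 had 67.8, 53.2 and 56.9 FPKM in Yap-siRNA cardiomyocytes and 2.21, 2.35 and 1.73 FPKM in Yap-siRNA fibroblasts, and the epicardial factor Wt1 had 2.01, 1.84 and 1.57 FPKM in Yap-siRNA cardiomyocytes and 25.1, 26.1 and 27.9 FPKM in Yap-siRNA fibroblasts. Leukocyte Ptprc had 3.65, 2.89 and 2.69 FPKM in Yap-siRNA cardiomyocytes and 3.83, 4.74 and 3.85 FPKM in Yap-siRNA fibroblasts.

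Most expressed genes separated the cell types after Yap knockdown. Of the 11346 genes tested, 8296 were called (73.1%), 4181 higher in Yap-siRNA cardiomyocytes (36.8%) and 4115 lower (36.3%). At a log2 fold change of at least 1, 1529 called genes were higher and 1343 lower, and at least 5 was reached by 65 genes on the cardiomyocyte side and 26 on the fibroblast side. The median log2 fold change over all genes was 0.00. The gene lists described below hold 897 entries in 37 lists, of which 838 are in the table, 792 were tested and 46 fell below the 0.5 FPKM limit. With so many genes called, the counts of a list stand against 36.8% and 36.3%, and its median against 0.00.

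Among genes of at least 5 FPKM in the higher group, Sh3bgr had the largest positive fold change after Myl6l, which is taken up below. Sh3bgr encodes an SH3-domain protein abundant in heart and skeletal muscle and had 1418, 1598 and 1284 FPKM in Yap-siRNA cardiomyocytes and 11.1, 11.2 and 14.3 FPKM in Yap-siRNA fibroblasts, a log2 fold change of 6.76 ± 0.10 (adjusted p = 5.26e-17). Tnni3, cardiac troponin I, had 4149, 4715 and 3483 FPKM in Yap-siRNA cardiomyocytes and 43.1, 43.9 and 38.8 FPKM in Yap-siRNA fibroblasts (6.58 ± 0.10). Myh6, the alpha-myosin heavy chain that predominates in the adult rodent heart, had 4765, 6102 and 5676 FPKM in Yap-siRNA cardiomyocytes and 57.5, 59.2 and 59.6 FPKM in Yap-siRNA fibroblasts (6.52 ± 0.10). In all 3 genes the lowest cardiomyocyte library lay far above the highest fibroblast library. Mb, which encodes the oxygen store myoglobin, had 543, 515 and 536 FPKM in Yap-siRNA cardiomyocytes and 4.17, 6.19 and 5.15 FPKM in Yap-siRNA fibroblasts (6.44 ± 0.11). The creatine kinase Ckm had 253, 245 and 300.0 FPKM in Yap-siRNA cardiomyocytes and 2.63, 3.19 and 2.44 FPKM in Yap-siRNA fibroblasts (6.15 ± 0.13).

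Others among the 15 largest were the thin-filament protein Lmod2 (6.24), the calcium-binding troponin Tnnc1 (6.15), the Z-disc protein Ldb3 (6.14), the atrial light chain Myl7 (6.13), the muscle elongation factor Eef1a2 (6.12), the essential light chain Myl3 (6.10), the titin cap Tcap (6.06), Art3 (6.02) and Nebl, the nebulette of the cardiac Z-disc (5.97). Groups that do not overlap were a condition for picking these 15. Myl6l came first by size at 8.24 but is uncertain. It had 212, 519 and 249.6 FPKM in Yap-siRNA cardiomyocytes and was listed at 0 in all 9 other libraries, and it is a near-identical copy of the light chain gene Myl6. Myl6 and Myl6l together had 1203, 1204 and 1219 FPKM in Yap-siRNA cardiomyocytes and 1458, 1595 and 1419 FPKM in Yap-siRNA fibroblasts, a log2 fold change of -0.30. The sum was far more even within cardiomyocytes than either gene, so how reads were divided between the copies was not settled by these values, and no change is read from Myl6l.

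Mfap4, a microfibril-associated protein of elastic fibres, had 1.11, 0.44 and 0.64 FPKM in Yap-siRNA cardiomyocytes, against 520.3, 521 and 485 FPKM in Yap-siRNA fibroblasts, a log2 fold change of -8.22 ± 0.13 (adjusted p = 1.23e-16). Col3a1, the collagen III chain, had 34, 28.1 and 31.1 FPKM in Yap-siRNA cardiomyocytes and 4447, 4401 and 4372 FPKM in Yap-siRNA fibroblasts (-7.11 ± 0.13). Postn encodes periostin, a matricellular protein of injured and developing heart, and had 18.9, 18.4 and 13.8 FPKM in Yap-siRNA cardiomyocytes and 2457, 2509 and 2291 FPKM in Yap-siRNA fibroblasts (-7.08 ± 0.13). In each of these the lowest fibroblast library lay far above the highest cardiomyocyte library. Tcf21, a basic helix-loop-helix factor of the epicardial fibroblast lineage, had 1.94, 1.02 and 0.89 FPKM in Yap-siRNA cardiomyocytes and 161, 161 and 143 FPKM in Yap-siRNA fibroblasts (-6.12 ± 0.14).

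Among secreted proteins on the fibroblast side were the thrombospondin Thbs2 (-6.28), the lymphangiogenic factor Figf, also called Vegfd (-6.17), Cthrc1 (-6.13), the small proteoglycan Aspn (-5.97), pleiotrophin, encoded by Ptn (-5.94), Ccdc80 (-5.82), Spon1 (-5.40) and the complement protease C1s (-5.39). Agtr1a, the angiotensin II receptor, had 1.18, 1.44 and 1.54 FPKM in Yap-siRNA cardiomyocytes and 135, 136 and 134 FPKM in Yap-siRNA fibroblasts (-5.84 ± 0.14). Pdgfra, the PDGF receptor that marks fibroblasts, had 1.17, 1.05 and 1.26 FPKM in Yap-siRNA cardiomyocytes and 110.4, 94.9 and 101 FPKM in Yap-siRNA fibroblasts (-5.58 ± 0.09). Aldh1a2, which makes retinoic acid, was at -5.59. The 15 were picked only from genes whose groups do not overlap.

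**Figure D1:**
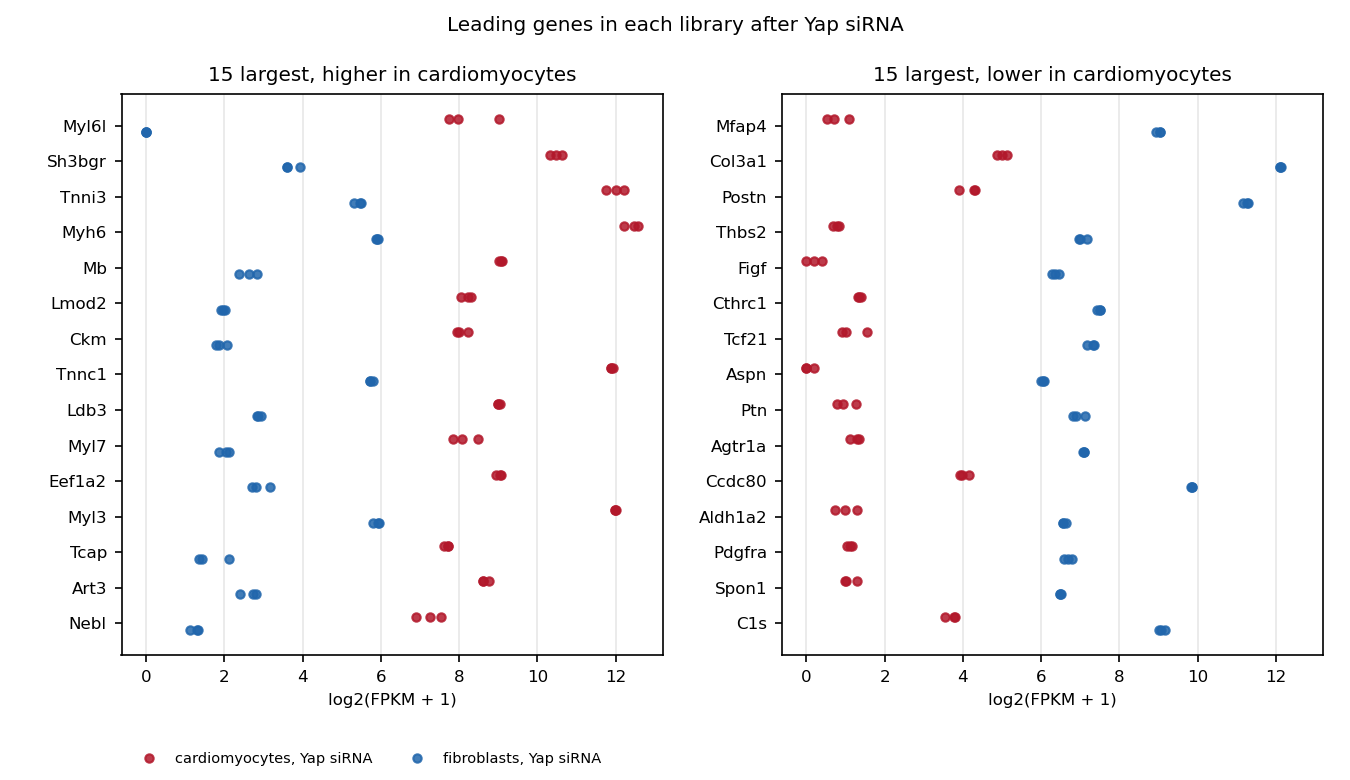
Level as log2(FPKM + 1) of the 15 genes with the largest positive (left) and the 15 with the largest negative (right) log2 fold change of Yap-siRNA cardiomyocytes (red, upper row of each gene) over Yap-siRNA fibroblasts (blue), 1 point per library. Genes were picked only where the points of the cell types do not overlap. Myl6l, at 0 in all fibroblast libraries, is the gene whose reads may be shared with Myl6.

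Promoters of leading genes were searched for 3 short elements, in the 250 bases before each start in RefSeq on the GRCr8 rat build, which is not the build the authors aligned to. The elements were the MCAT core CATTCC on either strand, to which TEAD factors bind, the CArG box, to which serum response factor binds, and the TATA box TATAAA on the gene's strand. Promoters were found for 11 of the 15 leading cardiomyocyte genes and 9 of the 15 leading fibroblast genes. The 4 shown are the last 120 bases before the start, or 250 for Myl3, with the matches in capitals. They were picked after their values were seen, as examples of each element among the leading genes that hold one.
Ldb3 promoter, CArG box (chr16:9924680-9924799, minus strand): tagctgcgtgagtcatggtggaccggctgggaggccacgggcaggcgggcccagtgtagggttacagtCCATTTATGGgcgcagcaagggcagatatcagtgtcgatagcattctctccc
Myl3 promoter, MCAT cores and CArG box (chr8:119616844-119617093, plus strand): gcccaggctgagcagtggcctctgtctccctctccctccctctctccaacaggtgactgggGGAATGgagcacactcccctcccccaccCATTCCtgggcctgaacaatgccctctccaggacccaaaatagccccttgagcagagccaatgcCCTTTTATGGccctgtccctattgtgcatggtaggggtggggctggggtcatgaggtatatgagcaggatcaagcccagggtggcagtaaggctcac
Myh6 promoter, MCAT core (chr15:32411698-32411817, minus strand): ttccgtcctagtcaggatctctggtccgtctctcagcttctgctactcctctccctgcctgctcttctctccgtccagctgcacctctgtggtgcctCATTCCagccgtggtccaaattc
Postn promoter, TATA box (chr2:140677941-140678060, plus strand): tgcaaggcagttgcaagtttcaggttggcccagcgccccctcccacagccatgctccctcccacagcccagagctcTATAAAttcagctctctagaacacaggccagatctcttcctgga
A CArG box began 52 bases before the start in Ldb3, 97 in Myl3 and 177 in Nebl, and was found in 1.11% of the promoters of 9204 tested genes. It was in 2.99% of 234 promoters of genes with a log2 fold change of at least 3, and in 0% of 109 at -3 or below. An MCAT core began 23 bases before the start in Myh6 and 189 and 161 bases before it in Myl3, and was found in none of the 9 leading fibroblast promoters. Over all tested genes 10.1% of promoters held one, against 13.7% of 234 promoters of genes with a log2 fold change of at least 3 and 13.8% of 109 promoters of genes at -3 or below. The core was thus about as frequent on both sides. TATA boxes were found in Mb and in Postn, Figf and Agtr1a, in 4.43% of all tested promoters, and in 12% and 10.1% of the promoters of genes at 3 or above and at -3 or below. A match describes letters in a window and no site of binding.

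Of the 37 lists, the contractile apparatus had the median furthest from 0. All 24 tested sarcomere filament and Z-disc genes, of 28 listed, were higher in Yap-siRNA cardiomyocytes, with a median log2 fold change of 5.72. Together they made up 8.52 ± 0.451% of summed FPKM in Yap-siRNA cardiomyocytes and 0.311 ± 0.0105% in Yap-siRNA fibroblasts (mean ± SD, n = 3 each). Of 16 tested calcium-handling genes 14 were higher and 2 lower. Casq2, calsequestrin of the sarcoplasmic reticulum, had 849.8, 867 and 871 FPKM in Yap-siRNA cardiomyocytes and 12.8, 12.9 and 13.1 FPKM in Yap-siRNA fibroblasts (5.95 ± 0.06). The histidine-rich calcium-binding protein Hrc (5.83), phospholamban, encoded by Pln (5.51), and the release channel Ryr2 (5.33) followed, and the calcium pump Atp2a2, the most abundant of the list, was at 4.25. Fkbp1b, a binding partner of Ryr2, was lower (-0.76), a call lost without fibroblast library 2 or cardiomyocyte library 2.

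Ion channels of the cardiac action potential lay on the same side. Of 22 tested, 20 were higher in Yap-siRNA cardiomyocytes, 2 were lower, and the median was 2.71. Kcnip2, the subunit that modulates the transient outward current, had 26.6, 23.6 and 32.5 FPKM in Yap-siRNA cardiomyocytes and 0.14, 0.05 and 0.14 FPKM in Yap-siRNA fibroblasts (4.67 ± 0.17). Kcnh2 (4.41), a delayed rectifier, and Kcnj11 (3.94), a pore of the ATP-sensitive potassium channel, were higher too. Kcnj8, the other pore of that potassium channel, was lower at -1.56, with 3.18, 1.81 and 3.84 FPKM in Yap-siRNA cardiomyocytes and 10.9, 9.99 and 10.1 FPKM in Yap-siRNA fibroblasts. Kcnd3 was lower too (-0.34).

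Of 17 tested cardiac transcription factors and cofactors, 14 were higher in Yap-siRNA cardiomyocytes, 1 was lower and 2 were not called. Nkx2-5, a homeobox factor of the cardiac lineage, had 114, 87.1 and 119.7 FPKM in Yap-siRNA cardiomyocytes and 1.37, 1.29 and 1.77 FPKM in Yap-siRNA fibroblasts (5.44 ± 0.11). The others named by size were Ankrd1 (5.13), a stretch-responsive repeat protein that is also a published YAP target, the methyltransferase Smyd1 (5.09) and the ventricular factor Irx4 (4.81). Tbx18, a T-box factor of epicardium and mural cells, was lower (-1.95). The median of the list was 1.77.

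Natriuretic peptides and fetal or stress-responsive genes lay mostly on the cardiomyocyte side. Of 14 tested, 11 were higher in Yap-siRNA cardiomyocytes and 3 lower. Nppa, atrial natriuretic peptide, had 7482, 7585 and 7332 FPKM in Yap-siRNA cardiomyocytes and 203, 215 and 195 FPKM in Yap-siRNA fibroblasts (5.19 ± 0.07), and Nppb was at 5.34. Skeletal actin Acta1 (5.56) and the fetal myosin Myh7 (5.45) were also higher. The C-type peptide and the receptors lay on the other side: Nppc (-2.23), the clearance receptor Npr3 (-2.02) and the guanylyl cyclase receptor Npr1 (-0.53). Nppc was listed at 0 in 2 of the 3 cardiomyocyte libraries and had 4.05, 5.25 and 2.97 FPKM in Yap-siRNA fibroblasts.

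At the intercalated disc 11 of 13 tested genes were higher in Yap-siRNA cardiomyocytes, 1 was lower and 1 was not called. Nrap (5.48), plakophilin Pkp2 (4.71), connexin 43, encoded by Gja1 (3.41), and alpha-catenin Ctnna1 (1.81) led. Gja1 had 322, 324 and 339 FPKM in Yap-siRNA cardiomyocytes and 29.4, 28.8 and 31.7 FPKM in Yap-siRNA fibroblasts. Beta-catenin, Ctnnb1, was lower, with 93.9, 83.7 and 98.6 FPKM in Yap-siRNA cardiomyocytes and 129.9, 121 and 126 FPKM in Yap-siRNA fibroblasts (-0.45 ± 0.06), and the groups did not overlap.

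**Figure D2:**
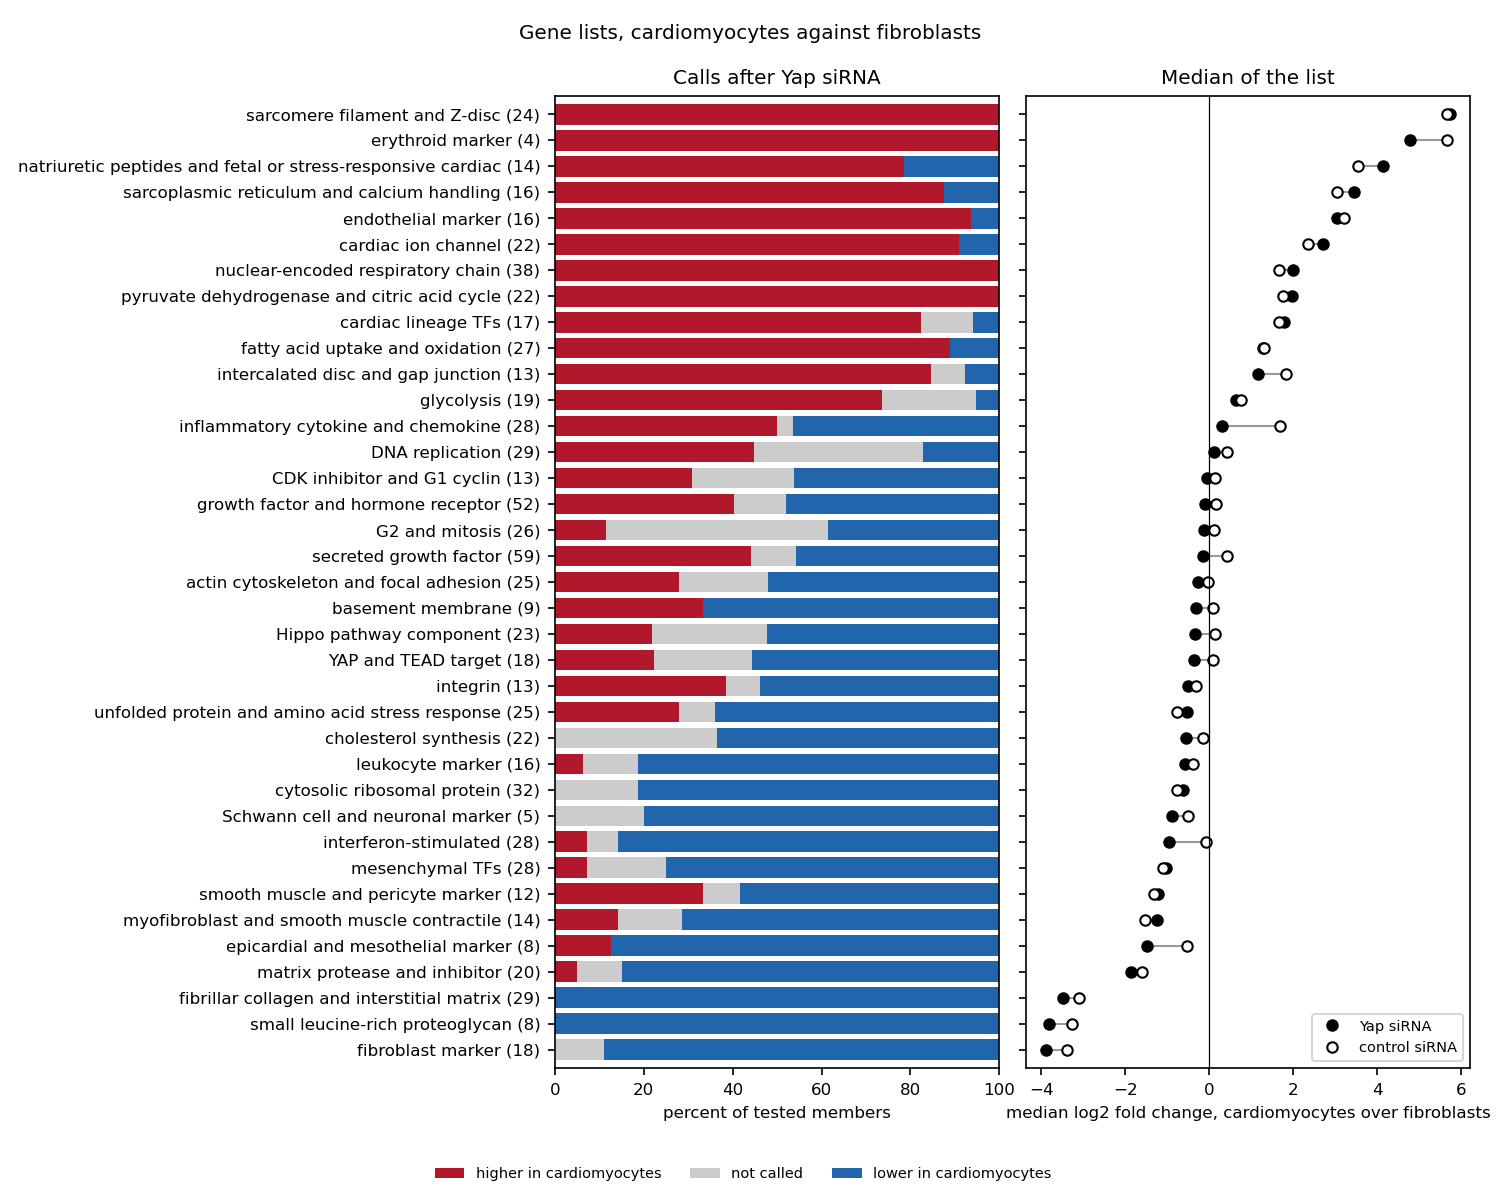
Gene lists for cardiomyocytes against fibroblasts. The left panel gives the percent of tested members (number in brackets) called higher, not called or called lower after Yap siRNA, and the right panel gives the median log2 fold change of each list after Yap siRNA (filled) and under control siRNA (open). The sarcomere list is all higher with medians of 5.72 and 5.65, and the inflammatory list has medians of 0.30 with Yap siRNA and 1.69 with control siRNA, and the interferon list -0.96 and -0.07.

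Genes of energy metabolism were mostly higher in cardiomyocytes. All 38 tested nuclear-encoded respiratory chain genes were higher in Yap-siRNA cardiomyocytes, at a median of 1.99, and their sum was 3.7 ± 0.039% of FPKM in Yap-siRNA cardiomyocytes and 0.906 ± 0.0151% in Yap-siRNA fibroblasts. Atp5g3, a c-ring subunit of ATP synthase, had 321, 308 and 344 FPKM in Yap-siRNA cardiomyocytes and 46, 45.6 and 40 FPKM in Yap-siRNA fibroblasts (2.86 ± 0.10). Cytochrome c, Cycs (2.86), and Atp5g1 (2.73) were close to it. All 22 tested genes of pyruvate dehydrogenase and the citric acid cycle were higher as well, at a median of 1.97, among them malate dehydrogenase Mdh1 (2.54), the pyruvate carrier Mpc1 (2.36) and Dlat (2.27).

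Of 27 tested genes of fatty acid uptake and oxidation, 24 were higher in Yap-siRNA cardiomyocytes and 3 lower. Cpt1b, the muscle carnitine palmitoyltransferase that admits fatty acids to mitochondria, had 84.3, 75.8 and 94.7 FPKM in Yap-siRNA cardiomyocytes and 2, 2.28 and 1.77 FPKM in Yap-siRNA fibroblasts (4.83 ± 0.10). The heart fatty acid binding protein Fabp3 (4.63), the acyl-CoA synthetase Acsl1 (3.80) and the transporter Cd36 (3.72) followed. The 3 genes lower in cardiomyocytes were lipoprotein lipase Lpl (-1.30), its inhibitor Angptl4 (-1.59) and the transporter Slc27a1 (-0.66). In glycolysis 14 of 19 tested genes were higher, 1 was lower and 4 were not called, at a median of 0.63. Under quantile normalization 13 were higher and 3 lower, at a median of 0.34. Pfkm, the muscle phosphofructokinase, was at 2.40, the hexokinase Hk1 at 1.79, the lactate exporter Slc16a3 at 1.73 and Aldoc at 1.54, while the liver-type Pfkl was lower (-0.45). Gapdh, the most abundant, was higher by 1.17.

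Muscle and broadly expressed members of the same protein family were set side by side in 22 tested pairs. The muscle member was higher in Yap-siRNA cardiomyocytes in all 22, and the broad member was lower in 8, higher in 10 and not called in 4. Myl6, the broad member paired with Myl3, was among those lower (-0.77). Its reads may be shared with Myl6l, so that value and the share of that pair are uncertain. For contractile actin the cardiac gene Actc1 made up 84.7, 86.7 and 86% of Actc1 plus Actb in Yap-siRNA cardiomyocytes, against 4.41, 4.74 and 4.5% in Yap-siRNA fibroblasts. For glycogen phosphorylase the muscle gene Pygm made up 98.7, 99 and 99.2% of Pygm plus Pygl in Yap-siRNA cardiomyocytes, against 18, 19.6 and 18.1% in Yap-siRNA fibroblasts, and Pygl itself was lower at -2.10. Such pairs changed in both members, with one higher and the other lower.

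In 10 pairs both members were higher. Ldhb, the lactate dehydrogenase chain typical of heart, made up 60.8, 60 and 61% of Ldhb plus Ldha in Yap-siRNA cardiomyocytes and 10.9, 13.1 and 12.2% in Yap-siRNA fibroblasts, while Ldha was itself higher in cardiomyocytes (0.65). The insulin-responsive glucose transporter Slc2a4 made up a mean of 27.4% of Slc2a4 plus Slc2a1 in Yap-siRNA cardiomyocytes and 1.56% in Yap-siRNA fibroblasts. Muscle enolase Eno3 was the minor partner of Eno1, which was not called, at 4.77% in Yap-siRNA cardiomyocytes and 0.539% in Yap-siRNA fibroblasts. Of the 22 shares, 21 did not overlap between the groups, where the levels of 73.4% of all tested genes did not overlap either. The exception was mitochondrial creatine kinase: Ckmt2 had 34.8, 46.4 and 28.2% of Ckmt2 plus Ckmt1b in Yap-siRNA cardiomyocytes and 38, 17.9 and 35.6% in Yap-siRNA fibroblasts. Compared with control siRNA, Ckm made up 84.3% of cytosolic creatine kinase in Yap-siRNA cardiomyocytes and 66% in control-siRNA cardiomyocytes, and Ldhb made up 60.6% of its pair in Yap-siRNA cardiomyocytes and 46.8% in control-siRNA cardiomyocytes. The mean share of the muscle member was higher with Yap siRNA than with control siRNA in 19 of 22 pairs in cardiomyocytes, a difference of shares that was not tested. In fibroblasts the mean share was also higher with Yap siRNA in all pairs but those of Actc1, Tpm1, Pygm and Dmd, again not tested.

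**Figure D3:**
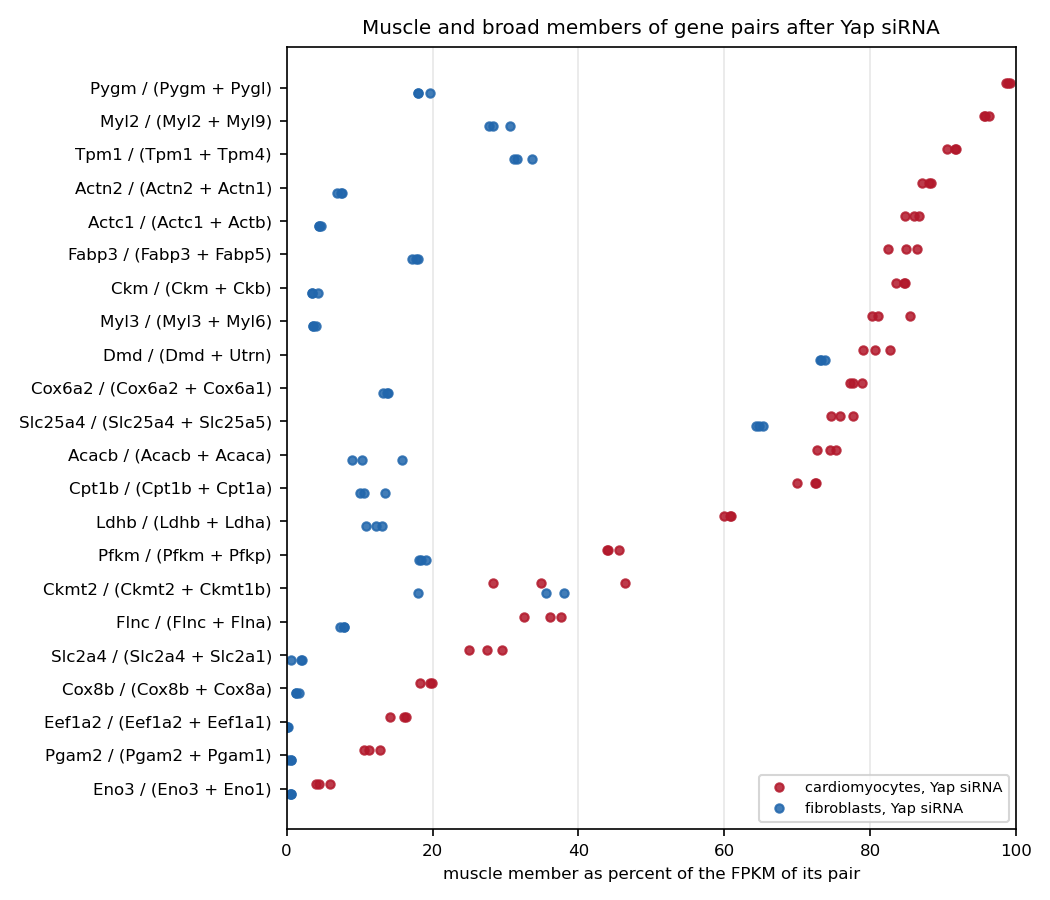
Share of the muscle member in the summed FPKM of each muscle and broad gene pair, in percent, 1 point per library, for cardiomyocytes and fibroblasts after Yap siRNA. Actc1 lies between 84.7% and 86.7% in cardiomyocytes and between 4.41% and 4.74% in fibroblasts, and Ckmt2 is the pair whose points overlap.

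On the fibroblast side, all 29 tested genes of fibrillar collagen and interstitial matrix were lower in Yap-siRNA cardiomyocytes, at a median of -3.49. Their sum was 0.581 ± 0.00894% of FPKM in Yap-siRNA cardiomyocytes and 4.45 ± 0.172% in Yap-siRNA fibroblasts. Besides Col3a1, Postn and Thbs2, Fbln1, an elastic-fibre protein, had 2.07, 1.8 and 2.03 FPKM in Yap-siRNA cardiomyocytes and 131, 113 and 112 FPKM in Yap-siRNA fibroblasts (-5.33 ± 0.08). All 8 tested small leucine-rich proteoglycans were lower at a median of -3.82, among them the collagen-binding Lum (-4.43), Dcn (-4.11) and Bgn (-3.91). Basement membrane genes were divided, with 3 higher and 6 lower of 9. Col15a1 (-3.66) and Col4a1 (-1.88) were lower with agrin, Agrn (-0.82), and Lama4 (-0.57). Col18a1 was higher, with 236, 240.0 and 243 FPKM in Yap-siRNA cardiomyocytes and 64.7, 61.1 and 65.4 FPKM in Yap-siRNA fibroblasts (1.89 ± 0.05), as were the laminin chain Lamb2 (1.38) and Nid2 (0.24). Nid2 lost its call without cardiomyocyte library 3, at a log2 fold change of 0.17 (limma adjusted p = 0.0769).

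Matrix proteases and their inhibitors followed the matrix. Of 20 tested, 17 were lower in Yap-siRNA cardiomyocytes, 1 was higher and 2 were not called. The gelatinase Mmp2 had 26, 19.3 and 23.9 FPKM in Yap-siRNA cardiomyocytes and 549.8, 512 and 500.3 FPKM in Yap-siRNA fibroblasts (-4.45 ± 0.09). The aggrecanase Adamts5 (-4.29), the procollagen peptidase Adamts2 (-4.12) and Mmp23 (-4.06) were lower too. Timp3, an inhibitor of these enzymes, was the one higher (1.11).

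Mesenchymal transcription factors were lower in 21 of 28 tested, higher in 2 and not called in 5, at a median of -1.03. After Tcf21, the homeobox factor Prrx1 had 10.8, 14 and 11.2 FPKM in Yap-siRNA cardiomyocytes and 118, 112 and 110.4 FPKM in Yap-siRNA fibroblasts (-3.15 ± 0.09), and Prrx2 (-2.76) and the repressor Snai1 (-2.73) came next. Scx, a factor of tendon and valve matrix, went the other way, with 7.51, 7.12 and 7.15 FPKM in Yap-siRNA cardiomyocytes and 2.09, 1.72 and 2.2 FPKM in Yap-siRNA fibroblasts (1.46 ± 0.13). The T-box factor Tbx3 was at 0.47, a call lost without fibroblast library 1 or 2 or cardiomyocyte library 1 or 3, at values of 0.40 to 0.41.

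Genes of smooth muscle and myofibroblast contraction were lower in 10 of 14 tested, higher in 2 and not called in 2. Acta2, the smooth muscle actin of myofibroblasts, had 453, 402 and 425 FPKM in Yap-siRNA cardiomyocytes and 1581, 1667 and 1598 FPKM in Yap-siRNA fibroblasts (-1.92 ± 0.07). The kinase Mylk (-3.08), the actin-binding Tagln (-2.55), Lmod1 (-2.04) and Myh11 (-1.93) were lower. Desmin, Des (3.65), and the Z-disc protein Synpo2 (3.88), which cardiomyocytes also make, were higher. The actin cytoskeleton and focal adhesion list had no common direction, with 13 lower and 7 higher of 25. The filamin Flna (-1.78), the actins Actb (-1.34) and Actg1 (-1.32) and Lasp1 (-1.28) were lower, and ezrin, Ezr (2.13), Pdlim1 (1.53) and Pdlim5 (1.05) higher. Reads of the near-identical actin genes may be divided between them.

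Integrins differed chain by chain. Of 13 tested genes of the list, 5 were higher in Yap-siRNA cardiomyocytes, 7 lower and 1 not called. The laminin receptor chains Itga7 (3.84) and Itga6 (1.66) and the muscle integrin partner Itgb1bp2 (5.60) were higher. Itga7 had 66, 57.5 and 75.9 FPKM in Yap-siRNA cardiomyocytes and 3.36, 4.06 and 3.68 FPKM in Yap-siRNA fibroblasts. Itga8, whose integrin binds RGD proteins, had 1.24, 0.88 and 1.19 FPKM in Yap-siRNA cardiomyocytes and 59.4, 54.4 and 57.7 FPKM in Yap-siRNA fibroblasts (-4.79 ± 0.09), and the collagen receptor chain Itga11 (-3.10), Itgb3 (-2.31) and Itga4 (-1.55) lay with it. The common chain Itgb1 was lower at -0.78.

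Published YAP and TEAD targets lay on both sides. Of 18 tested, 14 were called, beside 73.1% of all genes: 4 were higher in Yap-siRNA cardiomyocytes and 10 lower, against background shares of 36.8% and 36.3%. Ankrd1 had 3226, 3694 and 3250.2 FPKM in Yap-siRNA cardiomyocytes and 86.7, 104 and 96.8 FPKM in Yap-siRNA fibroblasts (5.13 ± 0.08). Igfbp3, which binds insulin-like growth factors, had 26.3, 20.1 and 16.3 FPKM in Yap-siRNA cardiomyocytes and 818, 825 and 797 FPKM in Yap-siRNA fibroblasts (-5.24 ± 0.16). These genes lie at opposite ends of the list. The receptor kinase Axl (-2.04), tissue factor F3 (-1.76) and Myof (-1.60) were lower in cardiomyocytes, and the ectonucleotidase Nt5e (0.72) and Crim1 (0.63) higher.

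Of 23 tested Hippo pathway genes, 5 were higher in Yap-siRNA cardiomyocytes, 12 lower and 6 not called. The giant cadherins Dchs1 (-2.18) and Fat4 (-1.66), the scaffold Wwc2 (-0.80) and the kinase cofactor Mob1a (-0.79) were lower. Its paralog Mob1b (0.92), merlin, encoded by Nf2 (0.85), and the kinase Stk4 (0.34) were higher. Mob1a had 17.6, 15.2 and 18.2 FPKM in Yap-siRNA cardiomyocytes and 30.7, 28.1 and 31.7 FPKM in Yap-siRNA fibroblasts, and Mob1b had 7.64, 10.5 and 8.91 FPKM in Yap-siRNA cardiomyocytes and 4.44, 3.05 and 5.63 FPKM in Yap-siRNA fibroblasts. Amotl2, the angiomotin that holds YAP outside the nucleus and the most abundant of the list, was at -0.71.

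Cell-cycle genes were expressed in both cell types, and their lists had medians near 0. DNA replication genes were higher in 13 of 29 tested, lower in 5 and not called in 11, at a median of 0.12 (0.07 under quantile normalization). Gins2 had 17.5, 18.8 and 16.9 FPKM in Yap-siRNA cardiomyocytes and 5.93, 6.46 and 6.28 FPKM in Yap-siRNA fibroblasts (1.37 ± 0.08), followed by the nuclease Fen1 (1.15), the reductase Rrm1 (0.81) and the licensing factor Cdc6 (0.68). E2f1 was lower (-0.33), and the sliding clamp Pcna did not pass at -0.10. Of 26 tested genes of G2 and mitosis, 3 were higher, 10 lower and 13 not called. The mitotic kinase Cdk1 had 33.6, 31.3 and 34.4 FPKM in Yap-siRNA cardiomyocytes and 45.7, 46.6 and 46.4 FPKM in Yap-siRNA fibroblasts (-0.47 ± 0.06), and the motors Kif20a (-0.51) and Kif11 (-0.44) and cyclin Ccnb2 (-0.44) were lower. Mki67, the proliferation antigen, was higher by 0.29, with 21.7, 26.3 and 20.3 FPKM in Yap-siRNA cardiomyocytes and 18.8, 17.2 and 19 FPKM in Yap-siRNA fibroblasts, and lost its call without library 2 of either cell type. The chromosomal passenger genes Incenp (0.25) and Cdca8 (0.24) were the others higher. Both lost their calls without library 1 of either cell type, Incenp at 0.21 without fibroblast library 1 and 0.17 without cardiomyocyte library 1, and Cdca8 at 0.20 without fibroblast library 1 and 0.17 without cardiomyocyte library 1. Cdca8 also lost its call under quantile normalization (0.20). The list of CDK inhibitors and G1 cyclins, which also holds the kinases Cdk4 and Cdk6 and Rb1, had 13 tested genes, 4 higher and 6 lower. Cdkn2b (-1.15), Cdkn2c (-0.78), Ccnd3 (-0.76) and Cdkn2a (-0.62) lay on the fibroblast side and Rb1 (0.96) and Ccnd1 (0.37) on the cardiomyocyte side.

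Inflammatory cytokines and chemokines were split after Yap knockdown. Of 28 tested, 14 were higher in Yap-siRNA cardiomyocytes, 13 lower and 1 not called. The colony-stimulating factor Csf2 had 13.8, 12.1 and 12 FPKM in Yap-siRNA cardiomyocytes and 0, 0.49 and 0 FPKM in Yap-siRNA fibroblasts (3.57 ± 0.15). Nos2, the inducible nitric oxide synthase (2.23), the neutrophil chemokine Cxcl2 (2.06) and Csf3 (2.04) lay with it, none above the level of Csf2. Several abundant members lay on the fibroblast side. Ccl2, which draws monocytes, had 1017, 925 and 746 FPKM in Yap-siRNA cardiomyocytes and 1794, 1830.0 and 1817 FPKM in Yap-siRNA fibroblasts (-1.03 ± 0.11). Lcn2, a siderophore-binding protein (-1.69), the alarmin Il33 (-2.57) and Cxcl12 (-1.61) were lower in cardiomyocytes too, with no overlap. The median of the list was 0.30, but -0.59 among the members with a mean of at least 5 FPKM.

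Interferon-stimulated genes leaned to the fibroblast side. Of 28 tested, 24 were lower in Yap-siRNA cardiomyocytes, 2 higher and 2 not called, at a median of -0.96. The antiviral GTPase Mx1 had 18.5, 16.7 and 11.2 FPKM in Yap-siRNA cardiomyocytes and 146, 160.4 and 162 FPKM in Yap-siRNA fibroblasts (-3.28 ± 0.15). Tetherin, Bst2 (-1.97), Ifit2 (-1.66) and Oasl2 (-1.64) were lower too, and the chemokine Cxcl10 was higher, with 203, 167 and 147 FPKM in Yap-siRNA cardiomyocytes and 106, 104 and 109.5 FPKM in Yap-siRNA fibroblasts (0.68 ± 0.10). The ISG15-removing protease Usp18 was at 0.25, a call lost without fibroblast library 1 or cardiomyocyte library 1 or 3, at values of 0.17 to 0.23, and under quantile normalization (0.12). Leukocyte markers also leaned to the fibroblast side: of 16 tested markers, of 19 listed, 13 were lower and 1 was higher. Their FPKM summed to 268 to 354 in Yap-siRNA cardiomyocytes and 442 to 508 in Yap-siRNA fibroblasts, and none of the defining markers Ptprc, Cd68 and Csf1r was at 0. Their part in the difference was not tested.

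Signals and their receptors were divided between the cell types in nearly equal numbers. Of 59 tested genes in the list of secreted growth factors, which also holds the intracellular Fgf12 and Fgf13, 26 were higher in Yap-siRNA cardiomyocytes. Another 27 were lower and 6 not called. Fgf1, a heparin-binding fibroblast growth factor, had 40.9, 53.3 and 44.8 FPKM in Yap-siRNA cardiomyocytes and 1.52, 1.35 and 1.2 FPKM in Yap-siRNA fibroblasts (4.32 ± 0.15). Fgf13, an intracellular relative that modulates sodium channels (4.22), Bmp7 (3.93) and Vegfa (1.45), the angiogenic factor and most abundant of the list, were higher too. Igf1 had 4.81, 2.8 and 3.13 FPKM in Yap-siRNA cardiomyocytes and 90.6, 84 and 82.9 FPKM in Yap-siRNA fibroblasts (-4.27 ± 0.12), and Angptl2 (-5.27) and Gdf6 (-3.79) lay with it and Figf on the fibroblast side.

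Of 52 tested receptors of growth factors and hormones, 21 were higher in Yap-siRNA cardiomyocytes, 25 lower and 6 not called. The adrenergic receptors Adrb1 (3.50) and Adra1b (3.05) were higher, and Adrb1 had 17.8, 11.2 and 21.8 FPKM in Yap-siRNA cardiomyocytes and 0.37, 0.51 and 0.74 FPKM in Yap-siRNA fibroblasts. After Agtr1a and Pdgfra, the PDGF receptor Pdgfrb (-3.52) and the oncostatin M receptor Osmr (-3.29) were lower. The VEGF receptor Kdr was higher at 3.27, with 11.8, 12.7 and 13.8 FPKM in Yap-siRNA cardiomyocytes and 0.43, 0.41 and 0.43 FPKM in Yap-siRNA fibroblasts, and it is also an endothelial marker. Of 16 tested endothelial markers, 15 were higher and 1 lower, and their FPKM summed to 492 to 566 in Yap-siRNA cardiomyocytes and 231 to 249.6 in Yap-siRNA fibroblasts. The marker that was lower, Eng, averaged 163 FPKM in Yap-siRNA cardiomyocytes and 209 FPKM in Yap-siRNA fibroblasts, most of the fibroblast sum. The part of the endothelial markers in the difference in Kdr was not tested.

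Housekeeping programmes separated the cells too. Cytosolic ribosomal protein genes were lower in 26 of 32 tested, higher in none (2 under quantile normalization) and not called in 6, and summed to 5.57 ± 0.243% of FPKM in Yap-siRNA cardiomyocytes and 8.84 ± 0.372% in Yap-siRNA fibroblasts. Rplp0 (-1.29), Rplp1 (-1.05) and Rps3 (-0.96) were among the lower ones, and Rps6 was the most abundant; these genes have many processed copies, so their reads may be divided. Cholesterol synthesis genes were lower in 14 of 22 tested and higher in none. The feedback protein Insig1 had 21.6, 22.7 and 22.2 FPKM in Yap-siRNA cardiomyocytes and 57.5, 60.9 and 59 FPKM in Yap-siRNA fibroblasts (-1.38 ± 0.07), and the enzymes Lss (-1.25), Tm7sf2 (-0.96) and Nsdhl (-0.88) were lower with it.

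The list of unfolded protein and amino acid stress genes was divided. Of 25 tested, 7 were higher in Yap-siRNA cardiomyocytes (4 under quantile normalization), 16 lower and 2 not called. The 4 named on the fibroblast side act in amino acid supply: the transporter Slc7a5 (-1.85), serine synthesis enzyme Phgdh (-1.84), proline synthesis enzyme Aldh18a1 (-1.77) and asparagine synthetase Asns (-1.74). Of the genes on the cardiomyocyte side, the endoplasmic reticulum chaperone Hspa5 had 972, 1101 and 971 FPKM in Yap-siRNA cardiomyocytes and 464, 458 and 466 FPKM in Yap-siRNA fibroblasts (1.13 ± 0.06), with Dnajb9 (1.01), Sdf2l1 (0.89) and calreticulin, Calr (0.55).

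The same comparison under control siRNA, which shares no library with the one after knockdown, gives the separation without knockdown. Of the same 11346 genes, kept by their mean in the Yap-siRNA libraries alone, 7721 were called there (68.1%). Genes expressed only under control siRNA are thus left out of the comparisons here, and how far that moves them was not tested. The calls were 4733 higher in control-siRNA cardiomyocytes and 2988 lower. This split rests on scaling too: it was 3836 higher and 3728 lower after median-of-ratios scaling and 3445 higher and 4219 lower after quantile normalization, with a median over all genes of 0.12 as deposited, 0.01 after median-of-ratios scaling and -0.06 after quantile normalization. The log2 fold changes with Yap siRNA and with control siRNA had a Pearson correlation of 0.912 and a Spearman correlation of 0.847 across the 11346 genes, which are not independent replicates. Of 6407 genes called in both, 6112 had the same direction. At a log2 fold change of at least 1, 1529 genes were higher and 1343 lower with Yap siRNA, against 1480 higher and 852 lower with control siRNA. After quantile normalization these counts were 1446 higher and 1457 lower with Yap siRNA, against 1208 higher and 1092 lower with control siRNA. The Spearman correlation between libraries of the 2 cell types averaged 0.805 with Yap siRNA and 0.844 with control siRNA, and the 9 values of each did not overlap.

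The difference between the separations, Yap siRNA minus control siRNA, was called for 4026 genes (35.5%), 1344 higher (11.8%) and 2682 lower (23.6%). This split rests on scaling. The median of the difference over all genes was -0.13 with FPKM as deposited, -0.01 after median-of-ratios scaling and 0.00 after quantile normalization, and 33.4%, 52.0% and 51.3% of calls were higher in the same order. The values of the difference below are on the deposited scale, so 0.00 relative to all genes lies at -0.13. By size, 2484 of the called genes were further apart after knockdown without calls in opposite directions, 995 on the cardiomyocyte side and 1489 on the fibroblast side. Another 1211 were closer, 929 on the cardiomyocyte side and 282 on the fibroblast side, and 295 were called in opposite directions. The counts by side are those of the deposited scale and are not given under the other scalings. The genes further apart include ones with no call under control siRNA, so their order there is not settled. Of all genes with a called difference, 1001 were called after knockdown but not under control siRNA. Because genes entered by their level in the Yap-siRNA libraries alone, these counts can lean towards wider separation after knockdown.

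**Figure D4:**
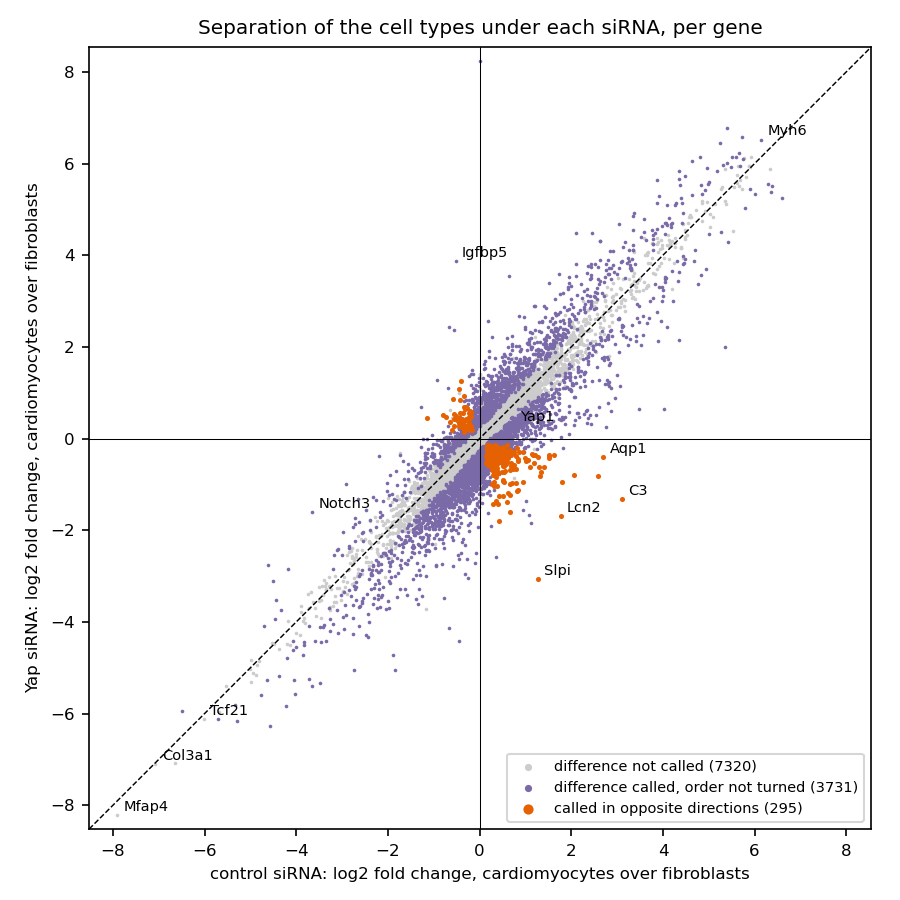
Log2 fold change of cardiomyocytes over fibroblasts for each of 11346 genes, with Yap siRNA (vertical) and with control siRNA (horizontal). Genes on the dashed line are equally far apart under both siRNAs. No difference was called for 7320, and 3731 have one without calls in opposite directions. Another 295 are called in opposite directions, most of them at the lower right.

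Genes that set the cell types further apart after knockdown lay on both sides. Igfbp5, an insulin-like growth factor binding protein, had 31.2, 39.4 and 39.4 FPKM in Yap-siRNA cardiomyocytes and 2.5, 1.12 and 1.26 FPKM in Yap-siRNA fibroblasts, against 0.54, 1.63 and 1.89 FPKM in control-siRNA cardiomyocytes and 2.8, 2.29 and 1.78 FPKM in control-siRNA fibroblasts. Only the Yap-siRNA cardiomyocytes were high, and the difference was 4.39 ± 0.32 (adjusted p = 1.81e-07). The kinase anchor Sphkap (2.91), the lysophosphatidic acid receptor Lpar2 (2.38), Dhrs7c of the sarcoplasmic reticulum (2.37) and Doc2g (1.94) were also highest in Yap-siRNA cardiomyocytes. On the fibroblast side, Enpp2, which makes lysophosphatidic acid, had 1.18, 1.08 and 0.93 FPKM in Yap-siRNA cardiomyocytes and 48.6, 41 and 39.6 FPKM in Yap-siRNA fibroblasts, against 1.28, 1.25 and 1.38 FPKM in control-siRNA cardiomyocytes and 1.79, 2.29 and 2.46 FPKM in control-siRNA fibroblasts (-3.95 ± 0.16). The chitinase-like protein Chi3l1 (-3.20) was likewise highest in Yap-siRNA fibroblasts.

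Others came closer. Notch3, a Notch receptor of mural cells, had 3.23, 2.27 and 4.39 FPKM in Yap-siRNA cardiomyocytes and 11.6, 11 and 13.1 FPKM in Yap-siRNA fibroblasts, against 2.29, 2.09 and 1.78 FPKM in control-siRNA cardiomyocytes and 42.4, 38 and 31.8 FPKM in control-siRNA fibroblasts (2.03 ± 0.22). Its transcriptional target Heyl was at 1.93. Csf2rb, the shared receptor chain for Csf2, had 83.1, 70.9 and 72.9 FPKM in Yap-siRNA cardiomyocytes and 19.6, 17.6 and 17.5 FPKM in Yap-siRNA fibroblasts, against 112, 126 and 107 FPKM in control-siRNA cardiomyocytes and 2.01, 1.72 and 1.84 FPKM in control-siRNA fibroblasts (-3.35 ± 0.12). The chemokine Cxcl6 had the same form (-3.38). For all 3 of Notch3, Csf2rb and Cxcl6 the fibroblast means differed more between siRNAs, as ratios, than the cardiomyocyte means.

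By list, the difference was called lower for 27 of 28 inflammatory genes and 23 of 28 interferon-stimulated genes and higher for none of either, and under median-of-ratios scaling for 26 and 18 lower. The inflammatory list had a median log2 fold change of 0.30 with Yap siRNA and 1.69 with control siRNA, and the interferon list had one of -0.96 with Yap siRNA and -0.07 with control siRNA. Leukocyte markers were called lower in the difference for 9 of 16 and higher for 1, or for 5 and 2 under median-of-ratios scaling, and their part was not tested. Endothelial markers were called lower for 8 of 16 and higher for none, or for 6 and 0 under median-of-ratios scaling and 6 and 2 under quantile normalization, with Pecam1 at -1.14, Eng at -1.04 and Cdh5 at -0.77. Epicardial markers were called lower for 5 of 8 and higher for none, with Krt18 at -2.28, Wt1 at -1.08 and Msln at -1.02. Krt18 came closer on the cardiomyocyte side, while Wt1 and Msln were further apart on the fibroblast side. The part of the endothelial and epicardial lists was not tested. The difference was higher for 15 of 22 ion channels and lower for 1, and for 21 of 38 respiratory chain genes and none lower. In the sarcomere list it was higher for 11 of 24 and lower for 3. Of 52 receptors, 26 were lower and 5 higher, the second count being 9 under quantile normalization. The stress-responsive list was lower for 7 of 14 and higher for 3, but lower for 5 and higher for 4 under median-of-ratios scaling. Nppb had 1215, 1008 and 1113 FPKM in Yap-siRNA cardiomyocytes, against 2908, 2759 and 2847 FPKM in control-siRNA cardiomyocytes, and its difference was -0.67.

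The 295 genes called in opposite directions comprise 58 that were higher in Yap-siRNA cardiomyocytes and 237 that were lower, and the 10 with the largest difference were all of the second kind. Complement C3 had 25.5, 25.2 and 19.6 FPKM in Yap-siRNA cardiomyocytes and 63.9, 58.2 and 56.1 FPKM in Yap-siRNA fibroblasts, against 42.6, 44.3 and 39.7 FPKM in control-siRNA cardiomyocytes and 3.36, 4.69 and 4.17 FPKM in control-siRNA fibroblasts. The order was reversed without overlap, and the difference was -4.41 ± 0.15 (adjusted p = 1.41e-10). The protease inhibitor Slpi had 7.24, 6.19 and 6.14 FPKM in Yap-siRNA cardiomyocytes and 64, 66.2 and 55.6 FPKM in Yap-siRNA fibroblasts, against 10.8, 15.1 and 12.1 FPKM in control-siRNA cardiomyocytes and 4.25, 4.7 and 4.81 FPKM in control-siRNA fibroblasts (-4.34 ± 0.16). Lcn2 had 212, 159 and 183 FPKM in Yap-siRNA cardiomyocytes and 619, 594 and 575 FPKM in Yap-siRNA fibroblasts, against 447, 407 and 355 FPKM in control-siRNA cardiomyocytes and 105, 119 and 129.6 FPKM in control-siRNA fibroblasts (-3.46 ± 0.15).

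In each of these 3 genes the fibroblasts were higher with Yap siRNA than with control siRNA and the cardiomyocytes lower, by their means. The same held for the haem-binding Hpx, the water channel Aqp1, the prostaglandin transporter Slco2a1, the adhesion molecule Vcam1, Angptl4 and the mitochondrial superoxide dismutase Sod2. Vcam1 averaged 33.2 ± 3.87 FPKM in Yap-siRNA cardiomyocytes and 65.1 ± 1.13 FPKM in Yap-siRNA fibroblasts, against 47.6 ± 7.96 FPKM in control-siRNA cardiomyocytes and 12.9 ± 2.04 FPKM in control-siRNA fibroblasts (mean ± SD, n = 3 each). Tril, a Toll-like receptor accessory protein, differed in form: it averaged 1.32 ± 0.196 FPKM in Yap-siRNA cardiomyocytes and 7.03 ± 0.401 FPKM in Yap-siRNA fibroblasts, against 12.4 ± 0.525 FPKM in control-siRNA cardiomyocytes and 9.06 ± 0.217 FPKM in control-siRNA fibroblasts.

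**Figure D5:**
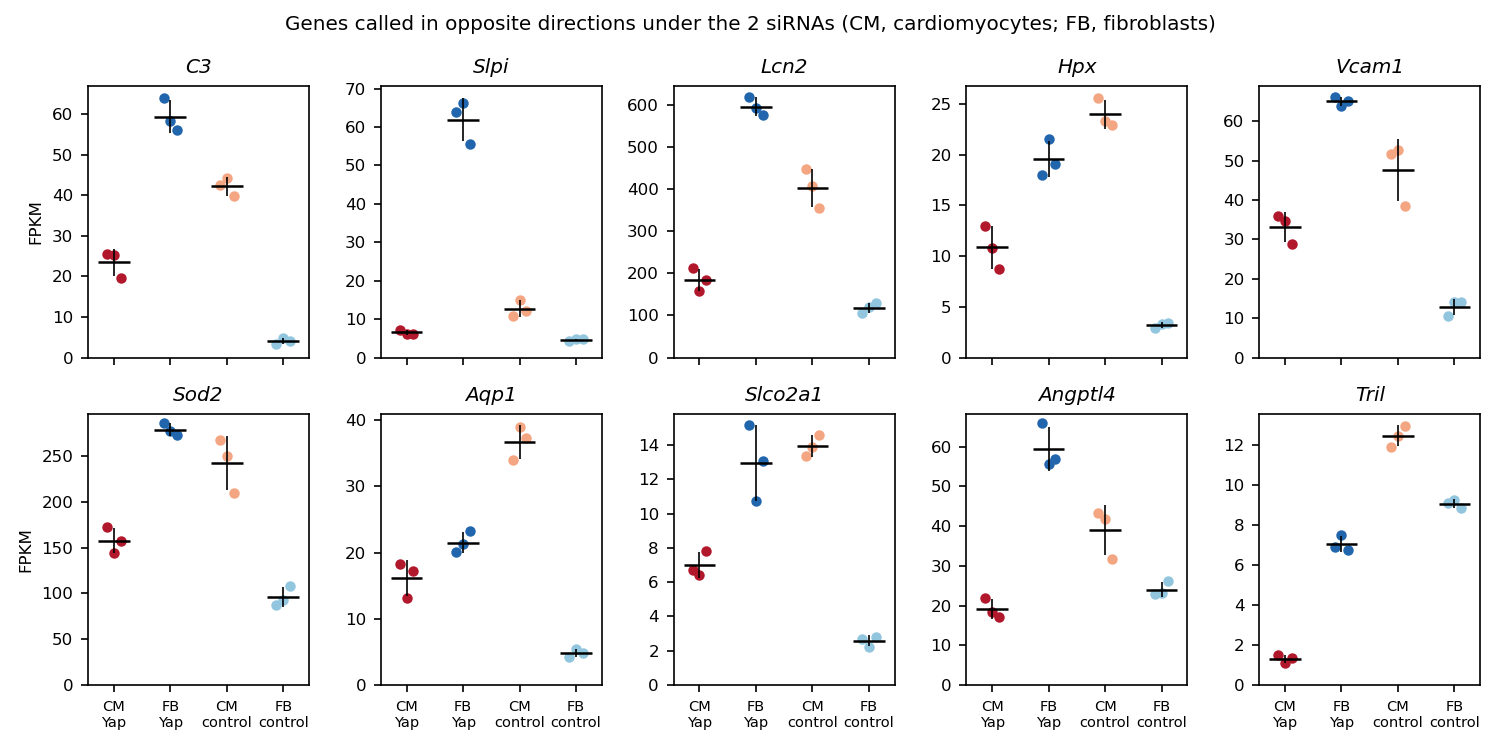
FPKM of the 10 genes with the largest difference among those called in opposite directions, 1 point per library with the mean (line) and SD (bar) of each group on a linear axis, for Yap-siRNA cardiomyocytes, Yap-siRNA fibroblasts, control-siRNA cardiomyocytes and control-siRNA fibroblasts. Each gene is lower in cardiomyocytes than in fibroblasts with Yap siRNA and higher with control siRNA; C3 averages 23.4 FPKM in Yap-siRNA cardiomyocytes and 59.4 FPKM in Yap-siRNA fibroblasts, against 42.2 FPKM in control-siRNA cardiomyocytes and 4.07 FPKM in control-siRNA fibroblasts.

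Marker lists of other cells that such cultures can hold also separated the groups. Endothelial Emcn (4.62), Cdh5 (4.50), Pecam1 (4.28) and Erg (4.18) were higher in Yap-siRNA cardiomyocytes and endoglin, Eng, lower (-0.37). The macrophage receptor Mrc1 (-1.55), Lcp1 (-1.38) and Cd14 (-1.36) were lower, while the leukocyte marker Cd68 had 61, 52.4 and 42.7 FPKM in Yap-siRNA cardiomyocytes and 60.9, 64.1 and 64 FPKM in Yap-siRNA fibroblasts and did not pass (-0.29). Epicardial Aldh1a2, Tbx18, Wt1 (-3.29) and Msln (-1.82) were among 7 of 8 tested markers that were lower, and keratin Krt18 was higher (0.59), a call lost without cardiomyocyte library 1 (0.41) or 2 (0.50). Of 12 tested smooth muscle and pericyte markers 7 were lower and 4 higher, with Myocd (4.01), a coactivator that cardiomyocytes also express, Abcc9 (2.19) and Cspg4 (1.38) on the cardiomyocyte side. All 4 tested erythroid genes were higher: the globin Hba1 had 72.8, 32.8 and 45.6 FPKM in Yap-siRNA cardiomyocytes and 0, 0.26 and 0 FPKM in Yap-siRNA fibroblasts, while Alas2, an enzyme of haem synthesis in red cell precursors, had 0.96, 0.18 and 0.4 FPKM in Yap-siRNA cardiomyocytes and was listed at 0 in the Yap-siRNA fibroblasts. The Schwann cell marker Sox10 was at or near 0, with at most 0.47 FPKM in any of the 6 libraries. How much of the separation of any gene comes with such cells was not tested.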

How the data were processed

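RNA of 12 libraries, 3 for each combination of cell type and siRNA, was sequenced from poly-A RNA on a BGISEQ-500, per the labels' protocols. The authors deposited one table of FPKM per gene; HISAT, Bowtie2 and the rn6 build are named in the submitters' processing notes, with their versions, the annotation and the quantifier not given in the sources used here. Depth cannot be recovered from FPKM, so no counting error is given, and replicate number limits precision.

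Genes averaging 0.5 FPKM or more in the 6 Yap-siRNA libraries were tested on log2(FPKM + 1) with limma 3.58.1 in R 4.3.3 (lmFit, eBayes with trend), all 12 libraries as 4 groups, two-sided, with Benjamini-Hochberg adjusted p under 0.05. The model was tested on simulated data. Gene IDs matched the reference table in 99.2% of 14636 rows, and 29 of 31 broken symbols were restored. Alternatives were median-of-ratios scaling, quantile normalization, pseudocounts of 0.1 and 5, a 5 FPKM filter, no filter, no variance trend, the compared groups alone, a replicate block, a fold limit and leaving out each library.

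Gene lists and the question itself were chosen with earlier results of these data known. Named genes are the 15 largest fold changes each way that reach 5 FPKM in the higher group, the 8 largest differences each way, the 10 largest of opposite direction, in each list up to 4 called members in the main direction, up to 3 against it and the most abundant, all isoform pairs and Yap1, Wwtr1 and the TEAD genes. The 15 each way were taken only from called genes whose groups do not overlap. Defining markers of each cell type are named besides. A few genes that the rule names are not reported here. Promoter sequences are those of RefSeq on GRCr8.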

Additional observations from a re-analysis of the deposited data

Results flagged for a closer look

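Each value here is the difference between separations, log2 fold change of cardiomyocytes over fibroblasts with Yap siRNA minus the same with control siRNA, on the deposited scale (limma, adjusted p under 0.05). In all, 4026 genes passed that test of the difference itself. The Yap and TEAD genes among them were Yap1 at -0.46, Wwtr1 at -0.45, Tead1 at -0.67 and Tead3 at 0.38, and the call of Yap1 was lost under both other scalings and that of Tead1 under both as well.

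Above 0 the largest values were those of Myl6l at 8.24, whose reads may be shared with Myl6, Igfbp5 at 4.39, Sphkap at 2.91, Lpar2 at 2.38, Dhrs7c at 2.37, Notch3 at 2.03, Doc2g at 1.94 and Heyl at 1.93.

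Below 0 the largest were C3 at -4.41, Slpi at -4.34, Enpp2 at -3.95, Lcn2 at -3.46, Cxcl6 at -3.38, Hpx at -3.38, Csf2rb at -3.35 and Chi3l1 at -3.20. Of these C3, Slpi, Lcn2 and Hpx were called in opposite directions under the 2 siRNAs. So were Aqp1 at -3.10, Slco2a1 at -2.86, Vcam1 at -2.76, Angptl4 at -2.26, Tril at -2.21 and Sod2 at -2.15.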

How the results depend on the processing

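Of 6602 values of single genes under 22 settings, 6523 kept their direction and their side of the threshold, 11 passed only under the alternative, 59 passed only in the fit reported and 9 changed sign. Of 1554 list counts 1513 stayed within 1.5 times. Quantile normalization turned Fdps to -0.13, Myl9 to -0.25, Pgam1 to -0.0303 and Eno1 to -0.27. Leaving out each library gave Eno1 -0.0471 to 0.101, below 0 without fibroblast library 2 or cardiomyocyte library 1 or 3, and Fabp5 -0.115 to 0.0661, above 0 without fibroblast library 2 or cardiomyocyte library 3; of these 5 genes only Pgam1 was called as reported, and for these reversals the cause was not tested. Scaling moved the genes with a lower difference to 1754 (median-of-ratios) and 1731 (quantile). Asking for a log2 fold change of at least 1 left, by construction, 2872 genes called after Yap siRNA, 1529 higher and 1343 lower, 2332 under control siRNA, and 611 in the difference, 186 higher and 425 lower, with 3 in opposite directions (C3, Slpi and Lcn2). Leaving out each library in turn gave 7849 to 8312 genes called after Yap siRNA, 3945 to 4194 higher and 3852 to 4118 lower. It gave 7199 to 7946 under control siRNA, 3387 to 4180 in the difference, 1153 to 1353 higher and 2222 to 2827 lower, and 226 to 314 in opposite directions. Libraries of the same number showed no strong shared deviation between the cell types after Yap siRNA (correlations of -0.05, 0.05 and 0.1). Between Yap siRNA and control siRNA the values were 0.15, 0.05 and 0.09 in cardiomyocytes and 0.01, -0.08 and -0.13 in fibroblasts. Such values cannot settle whether the number pairs libraries, and the labels do not say. With a replicate block 8233 genes were called after Yap siRNA and 3886 in the difference. Read depth is unknown and limits what can be said of genes near 0.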

Other observations

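Several lists not yet set against control siRNA also had called differences (Yap siRNA minus control siRNA, limma, background 11.8% higher and 23.6% lower). In the unfolded protein and amino acid list 11 of 25 tested genes were higher and 4 lower, and in each other scaling at least as many were higher. The chaperone Hspa5 had 972, 1101 and 971 FPKM in Yap-siRNA cardiomyocytes and 464, 458 and 466 FPKM in Yap-siRNA fibroblasts, against 727, 756 and 779.9 FPKM in control-siRNA cardiomyocytes and 623, 635 and 642 FPKM in control-siRNA fibroblasts (0.88 ± 0.09). Calreticulin, Calr, was called in opposite directions, with log2 fold changes of 0.55 after Yap siRNA and -0.23 under control siRNA. Cholesterol synthesis genes were lower for 10 of 22 and higher for none, and for 9 under both other scalings, with Insig1 at -0.67 and Lss at -0.66.

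DNA replication genes were lower for 12 of 29 and higher for 2, or for 8 and 3 under median-of-ratios scaling, and G2 and mitosis genes were lower for 8 of 26, but for 2 under both other scalings. Cyclin D1, Ccnd1, had 31.5, 28.9 and 29.9 FPKM in Yap-siRNA cardiomyocytes and 22.1, 22.6 and 24.5 FPKM in Yap-siRNA fibroblasts, against 72.4, 70.6 and 62.7 FPKM in control-siRNA cardiomyocytes and 27.8, 29.6 and 26.9 FPKM in control-siRNA fibroblasts (-0.89 ± 0.10). Acta2 had 453, 402 and 425 FPKM in Yap-siRNA cardiomyocytes and 1581, 1667 and 1598 FPKM in Yap-siRNA fibroblasts, against 2361, 2249 and 2449 FPKM in control-siRNA cardiomyocytes and 3248, 3182 and 3176 FPKM in control-siRNA fibroblasts (-1.48 ± 0.10), while its list had 6 of 14 higher and 4 lower, or 7 and 2 under median-of-ratios scaling. Smooth muscle and pericyte markers were higher for 6 of 12 and lower for 1. Of those higher, Abcc9 (1.06) was further apart on the cardiomyocyte side, while Lmod1 (0.94) and Pdgfrb (0.92) came closer from the fibroblast side.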
